A study of Rattus norvegicus with 48 samples.

Results

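The effect of 12 weeks of a steatohepatitis diet on the rat liver transcriptome was described from 16 livers, 8 of rats on the choline-deficient L-amino acid-defined diet with 1% cholesterol (CDAA) and 8 of rats on the choline-supplemented control diet (CSAA). They were taken by diet and week from a series of 48 livers, which also holds 16 livers each of weeks 4 and 8. All animals were male Wistar rats (RjHan:WI), 6 weeks old when the diets began and housed in pairs, and the labels do not give the cages. CDAA contained 0.17% methionine and took 11% of its energy from protein, 31% from fat and 58% from carbohydrate. CSAA contained 0.4% methionine and took 12% of its energy from protein, 16% from fat and 72% from carbohydrate. The diets therefore differed in choline, cholesterol, methionine, fat and carbohydrate at once, and slightly in protein. The shares of these in the changes cannot be told apart. Messenger RNA of whole liver was sequenced, so that fewer cells of a type and less RNA per cell cannot be told apart either.

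Choline is needed to make phosphatidylcholine, the main phospholipid of the lipoproteins that carry fat out of the liver. Without it, triglycerides remain in hepatocytes, and rodents on such diets are known for steatosis, inflammation and fibrosis. In fibrosis, stellate cells turn into matrix-producing cells, while hepatocytes make the most abundant messages of a healthy liver, many of them for plasma proteins and enzymes. The deposited tables list genes by Ensembl identifier alone and do not pair identifiers with names. Gene names, pathways and the cell types of the livers are thus not given here, and the liver label was not checked against markers. Genes are described by number, level and size of change, with 4 identifiers as examples.

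Expression changed broadly after 12 weeks. Of 12756 genes tested, 2476 were upregulated and 1441 downregulated on CDAA, 30.7% in all, with 19.4% in the upward and 11.3% in the downward direction. A gene was counted as changed at an adjusted p value under 0.01 (edgeR's quasi-likelihood test on the counts, Benjamini-Hochberg adjustment over all genes tested) and a log2 fold change of at least 1 in either direction. Without the limit on the fold change, 8840 genes passed (69.3%), of which 3997 were higher and 4843 lower. The larger number of upregulated genes was thus found among large changes, whereas of the 4923 genes that passed with a smaller change, 3402 were lower on CDAA. This balance depends on the scaling of the libraries, described below. With another set of scaling factors (RLE), 1183 genes were downregulated in place of 1441, and smaller changes were not counted. Only 38 genes had a log2 fold change of 1 or more and missed the adjusted p value. The filter on low counts bears on this split, since a gene was tested when it had 1 CPM or more in at least 5 animals of any group. In the week 12 groups, 1743 genes passed it on CDAA alone, of which 1331 were upregulated and 0 downregulated, and 93 passed on CSAA alone, of which 90 were downregulated and 0 upregulated. Among the 10781 genes that passed on both diets, 1117 were upregulated (10.4%) and 1322 downregulated (12.3%). When the test itself was made against a log2 fold change of 1, 2332 genes (18.3%) passed, 1621 higher and 711 lower.

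Upregulated genes had larger fold changes than downregulated genes. The median log2 fold change was 1.89 for upregulated genes (quartiles 1.42 and 2.60) and -1.36 for downregulated genes (quartiles -1.76 and -1.14), and -0.09 over all genes tested. Among the genes that passed the filter on both diets the medians were 1.55 and -1.33. A change of at least 2 on the log2 scale was found for 1143 upregulated genes (46.2%) and for 250 downregulated genes (17.3%). With all animals the order turned at the far end: 28 downregulated but 13 upregulated genes changed by 5 or more, with extremes of -9.99 and 6.02. The number of large rises depended on control animal 908. Upregulated genes that changed by 4 or more numbered 113 with all animals and 267 without animal 908. Without this animal, downregulated genes and the limit of 5 were not counted. The median standard error of a log2 fold change was 0.128 over all genes, 0.263 for upregulated and 0.143 for downregulated genes. In 3279 of the 3917 changed genes the values of the 8 CDAA and the 8 CSAA animals did not overlap. Over all genes tested this held for 5547 genes (43.5%), and among the genes not counted as changed for 2268 of 8839 (25.7%).

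Among well expressed genes, downregulation was more frequent at higher levels. Levels are given as CPM, the reads on a gene relative to the reads on all genes, scaled by TMM factors that adjust for library composition, and compare the same gene between animals. Of the 6214 genes with a mean from 10 to 100 CPM over the 16 animals, 8.85% were upregulated and 9.83% downregulated. Among 1116 genes from 100 to 1000 CPM, 3.49% were upregulated and 38.7% downregulated, and of the 115 genes above 1000 CPM, 1 was upregulated and 68 were downregulated (59.1%). Nearly all of these genes passed the filter on both diets. Below 10 CPM the filter itself favoured one direction, so the counts there are a description. Of the 4592 genes from 1 to 10 CPM, 1433 were upregulated and 294 downregulated, and of the 3375 among them that passed on both diets, 558 and 219. Of the 719 genes with up to 1 CPM, 453 were upregulated and 36 downregulated, and 0 had passed on both diets. Low genes were measured less precisely, with a median standard error of 0.354 up to 1 CPM and 0.106 from 100 to 1000 CPM.

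**Figure D1:**
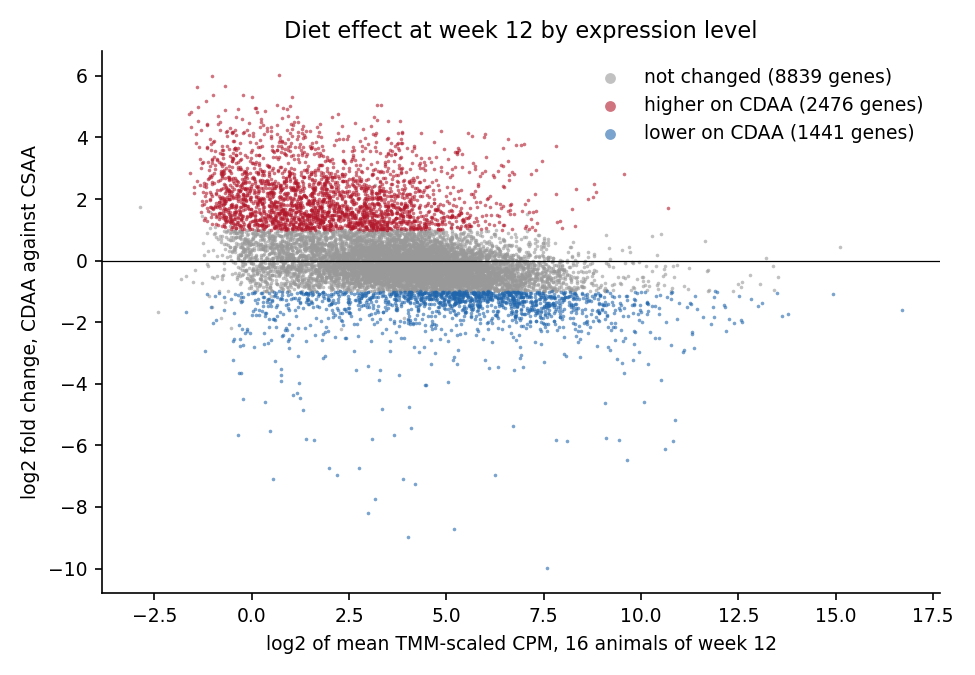
Log2 fold change of CDAA against CSAA at week 12 (y axis) by the log2 of the mean TMM-scaled CPM of the 16 animals (x axis), 1 point per gene, with upregulated genes in red, downregulated genes in blue and the rest in grey. Of the 115 genes above 1000 CPM, 68 are downregulated, while many of the upregulated genes at low levels passed the filter on CDAA alone, as 1743 of all genes tested did.

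The downregulated genes held most of the reads of a control liver. Their share of the reads on genes was 56.9 ± 2.17% (SD, n = 8) in CSAA livers and 33.3 ± 1.54% (SD, n = 8) in CDAA livers. The share of the upregulated genes rose from 0.994 ± 0.386% (SD, n = 8) in CSAA livers to 6.41 ± 0.718% (SD, n = 8) in CDAA livers. Genes tested and not counted as changed rose from 42.1 ± 1.93% (SD, n = 8) to 60.2 ± 0.812% (SD, n = 8), a larger gain than that of the upregulated genes. The loss lay in few genes: 20 of the 1441 downregulated genes made up 50% of it and 100 made up 78.4%, with 5.11% of all reads lost by the single gene with the largest loss. The gain was spread more widely, since 113 of the 2476 upregulated genes were needed for 50% of it and the largest gain of a single gene was 0.284% of the reads. The genes were chosen by their change between these animals, so the shares describe them and were not tested.

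The reads of a CDAA liver were spread over more genes. The number of genes that together held 50% of the reads was 66 to 81 on CSAA (median 71.5) and 138 to 204 on CDAA (median 167). The groups did not overlap (two-sided exact permutation test of the means, 8 animals against 8, p = 0.000155, the smallest p that 8 against 8 allows, and 0.000311 after Benjamini-Hochberg adjustment over 2 comparisons). The test takes each animal as a separate unit. Since the rats were housed in pairs and the cages are not given, it could not allow for shared cages. The number of reads on genes, from 15267445 to 21193513 per animal, showed no difference between the diets that passed the same exact permutation test (p = 0.664 before and after adjustment). Genes with at least 1 read numbered 14903 to 15504 per animal on CSAA and 16350 to 16947 on CDAA.

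This difference in composition bears on the scale of every fold change. The TMM factors ran from 0.717 to 0.862 on CSAA and from 1.27 to 1.43 on CDAA. Without such factors the median log2 fold change of all genes was 0.73 in place of -0.09. Of the genes then counted as changed, 94.0% were upregulated (4864 higher, 311 lower), against 63.2% with TMM factors. With the deposited RPKM values, which also carry no such factors, 94.2% were upregulated. Other ways to adjust for composition moved the balance as well. With RLE factors the median log2 fold change was 0.004, with 2645 genes higher and 1183 lower. With the week 12 animals fitted alone it was 0.011, with 2618 genes higher and 1146 lower. All directions given here are relative to the TMM scale, and 2787 of the 3917 genes were also counted as changed in the same direction by library size alone. Under all 35 alternatives together 1194 of the 2476 upregulated genes and 224 of the 1441 downregulated genes kept their call and direction, and in no alternative was a changed gene called in the opposite direction.

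The strongest single changes were near-complete losses. ENSRNOG00000008050 had the largest fall among genes of at least 10 CPM with separate values for the diets. On CSAA its lowest value was 173 CPM, its median 408 and its highest 612, whereas on CDAA the lowest was 0.0750, the median 0.198 and the highest 1.40. Every control animal was thus more than 100 CPM above every CDAA animal. The log2 fold change was -9.99 ± 1.02 (SE, 95% interval -12.0 to -7.94, edgeR adjusted p = 5.74e-12). The lowest CSAA value was that of animal 908 and the highest CDAA value that of animal 1104.

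ENSRNOG00000030868 showed the second largest fall by the same rule. It ranged from 12.5 to 44.8 CPM on CSAA with a median of 35.6, and from 0 to 0.136 CPM on CDAA, where no animal had more than 3 reads and 2 had none. The groups were widely separated, and the log2 fold change was -8.99 ± 1.11 (SE, 95% interval -11.2 to -6.76, edgeR adjusted p = 8.15e-10). At the earlier weeks the controls themselves were divided. At week 4, 3 of 8 CSAA animals had less than 1 CPM with a group maximum of 31.0, and at week 8 again 3 of 8 with a maximum of 40.8. On CDAA no animal exceeded 0.421 CPM at week 4 or 0.301 CPM at week 8. At week 12 no control animal was in the low range.

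The largest rises by this rule were those of ENSRNOG00000017762 and ENSRNOG00000004695, both close to absence in most control livers. ENSRNOG00000017762 ranged from 5.88 to 27.4 CPM on CDAA with a median of 23.9. In 7 CSAA animals it lay between 0 and 0.180 CPM, with 3 reads or fewer, and in animal 908 it was 3.93 CPM. The log2 fold change was 5.07 ± 0.734 (SE, 95% interval 3.59 to 6.55, edgeR adjusted p = 3.87e-08) with all animals and 7.68 ± 0.880 (SE, adjusted p = 1.31e-10) without animal 908. The single control animal thus lowered the size of the rise and left its direction. On CDAA the 2 low animals were 1103 at 5.88 CPM and 1102 at 6.01 CPM.

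For ENSRNOG00000004695 the CDAA animals lay between 12.6 and 27.1 CPM with a median of 17.7. The controls lay between 0 and 0.430 CPM in 7 animals and at 3.73 CPM in animal 908. The log2 fold change was 5.04 ± 0.616 (SE, edgeR adjusted p = 6.90e-10) and became 7.72 ± 0.699 (SE, adjusted p = 2.01e-13) without animal 908. Animal 1102 was the lowest of the CDAA animals, and both diets remained apart with it.

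**Figure D2:**
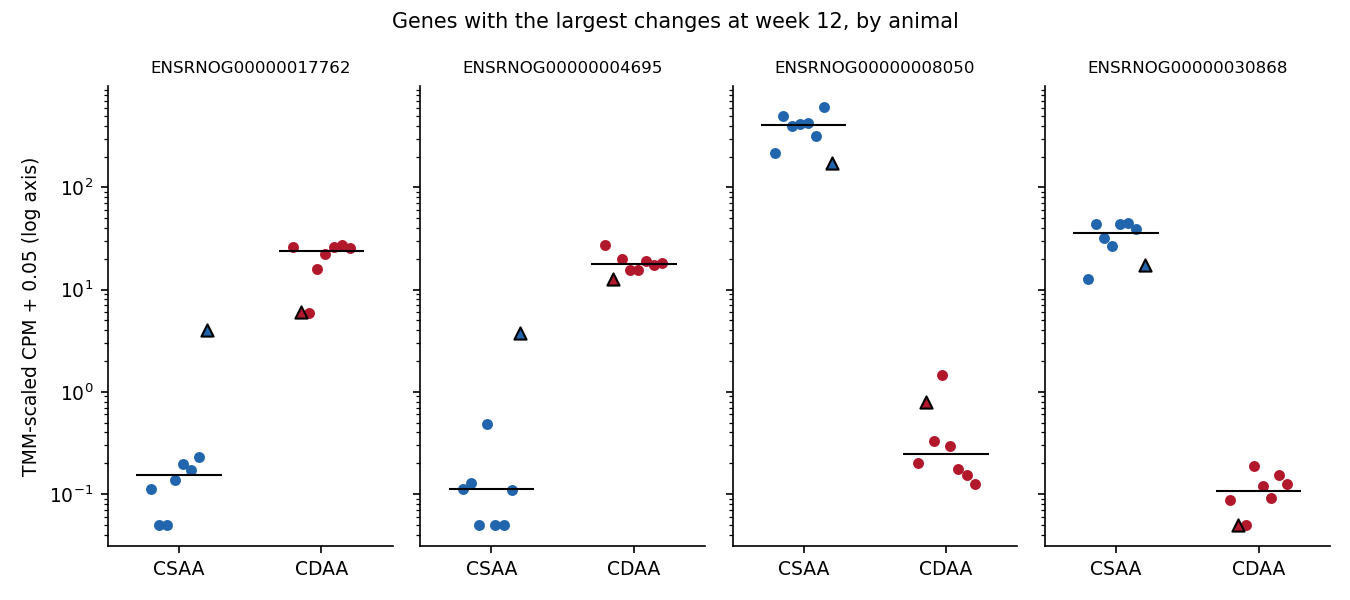
TMM-scaled CPM plus 0.05 on a log axis for the 2 genes with the largest rise and the 2 with the largest fall, 1 point per animal of week 12, with CSAA in blue, CDAA in red, a black line at the median, and triangles for animals 908 (CSAA) and 1102 (CDAA). Animal 908 lies at 3.93 and 3.73 CPM for the upregulated genes, above all other controls.

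Each animal was placed between the diets over the changed genes, with 0 for the mean of CSAA and 1 for the mean of CDAA on the log2 CPM scale. The genes were taken from the fit without the animal in question. Both means leave out this animal, while the log2 CPM values are those scaled with all animals. In 7 CSAA animals the median position lay between -0.09 and 0.06, and in 7 CDAA animals between 0.95 and 1.09. Animal 908 of CSAA stood at 0.40 (quartiles 0.19 and 0.56 over 4083 genes) and animal 1102 of CDAA at 0.80 (quartiles 0.69 and 0.91 over 4038 genes). Neither reached the other diet. Animal 908 was nearer to the CDAA mean in 1431 of the 4083 genes, against 2.58% to 7.22% of the genes in the other controls. Animal 1102 was nearer to the CSAA mean in 7.28% of the genes, against 0.388% to 2.81% for the other CDAA animals.

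**Figure D3:**
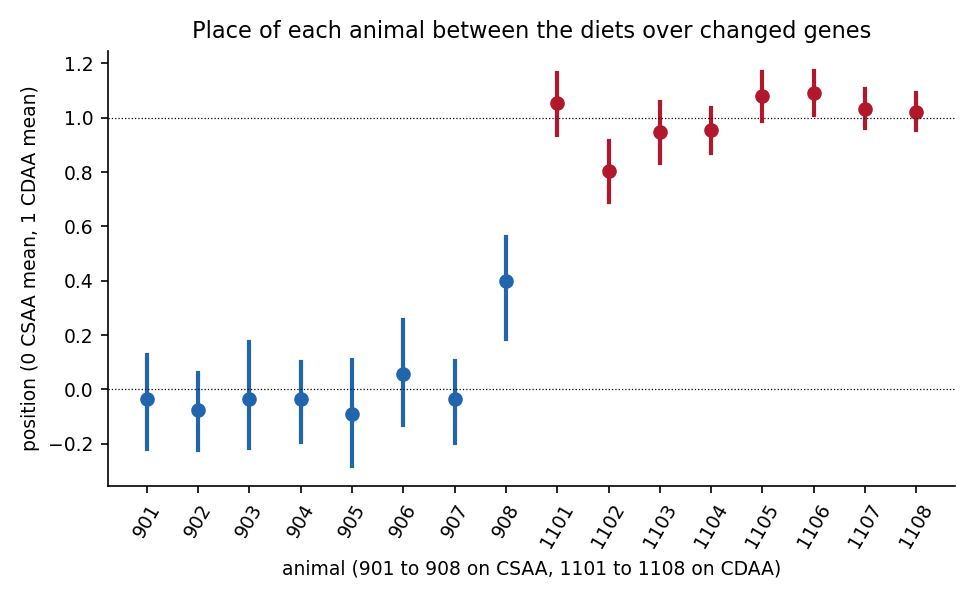
Position of each of the 16 animals of week 12 between the CSAA mean (0) and the CDAA mean (1) over the genes changed in the fit without that animal, with the median as a point and the quartiles as a bar, CSAA in blue and CDAA in red. Animal 908 stands at 0.40 and animal 1102 at 0.80, while the others stay within 0.10 of their own diet.

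The shift of animal 908 was uneven. Its median position was 0.50 over upregulated genes and 0.18 over downregulated genes, whereas animal 1102 stood at 0.79 and 0.82. In 267 genes with a log2 fold change of at least 4 in the fit without animal 908, this animal had a median of 28.1% of the CDAA mean (quartiles 18.8% and 35.3%), and the other 7 controls had medians of 1.84% to 3.50%. In 44 genes that fell by at least 4 without animal 1102, this animal had a median of 4.73% of the CSAA mean, and the other CDAA animals 0.415% to 1.76%. Both sets of genes were chosen with the other animals of the group in the fit and the animal in question left out. The choice itself favours low values in the others, so these contrasts are a description. The upregulated genes took 1.94% of the reads of animal 908 and 0.807% to 0.969% in the other controls. Its depth of 17138584 reads was neither the lowest nor the highest of the controls. What set these animals apart was not tested, and both were kept.

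Leaving out these animals raised the number of changed genes and the size of most changes. Both lay nearer to the other diet than the rest of their group. Such a rise was therefore likely in advance, and the values below are a description. The number of changed genes became 4090 without animal 908, 4099 without animal 1102 and 4266 (2671 higher, 1595 lower) without both. Of the 3917 genes, 3895 (99.4%) were also changed without both, and 22 were not. A further 371 genes were gained, 202 higher and 169 lower, and 300 of them had been tested with all animals. Those had a median absolute log2 fold change of 0.96 with all animals and 1.04 without both, on either side of the limit of 1. The log2 fold change grew in 93.9% of the 3917 genes, by a median ratio of 1.11 for upregulated and 1.05 for downregulated genes. Large rises were affected most: 398 genes reached a log2 fold change of 3 with all animals and 654 without both, whereas 78 and 86 genes reached -3. Of the 3917 genes, 3279 had separate values for the diets with all animals, 3494 without animal 908, 3450 without animal 1102 and 3597 without both. In a fixed set of genes, leaving out animals cannot lower this count, so its rise is a description. Over all genes tested, separate values were counted with all animals only (5547 genes, 43.5%).

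Animals 1105 to 1108 of CDAA resembled each other more closely than other animals of the group. The median absolute difference of log2 CPM between members of a pair, over all genes tested, was 0.10 to 0.13 in the 6 pairs among them, 0.15 to 0.23 in the other 22 pairs of CDAA and 0.20 to 0.43 in the 28 pairs of CSAA. A difference of at least 1 on the log2 scale was found in 0.235% to 0.721% of the genes in these 6 pairs and in 1.40% to 6.05% in the other CDAA pairs. The median SD of log2 CPM was 0.106 over animals 1105 to 1108, 0.169 over animals 1101 to 1104, 0.171 over the whole CDAA group and 0.298 over CSAA. The labels give them as separate animals and name no shared litter, cage or run.

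Keeping only 1 of these 4 animals lowered the counts slightly. The changed genes numbered 3782, 3807, 3734 and 3729 with animal 1105, 1106, 1107 or 1108 kept, and 3690, 3699, 3651 and 3628 of them were among the 3917. In all 4 of these fits, 3542 of the 3917 genes (90.4%) were changed, 2270 higher and 1272 lower. The 375 genes lost at least once had a median absolute log2 fold change of 1.07 with all animals. The median standard error grew from 0.128 to between 0.148 and 0.149. Without animals 908 and 1102 and with only 1105 kept, 4071 genes were changed, of which 3777 were shared.

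**Figure D4:**
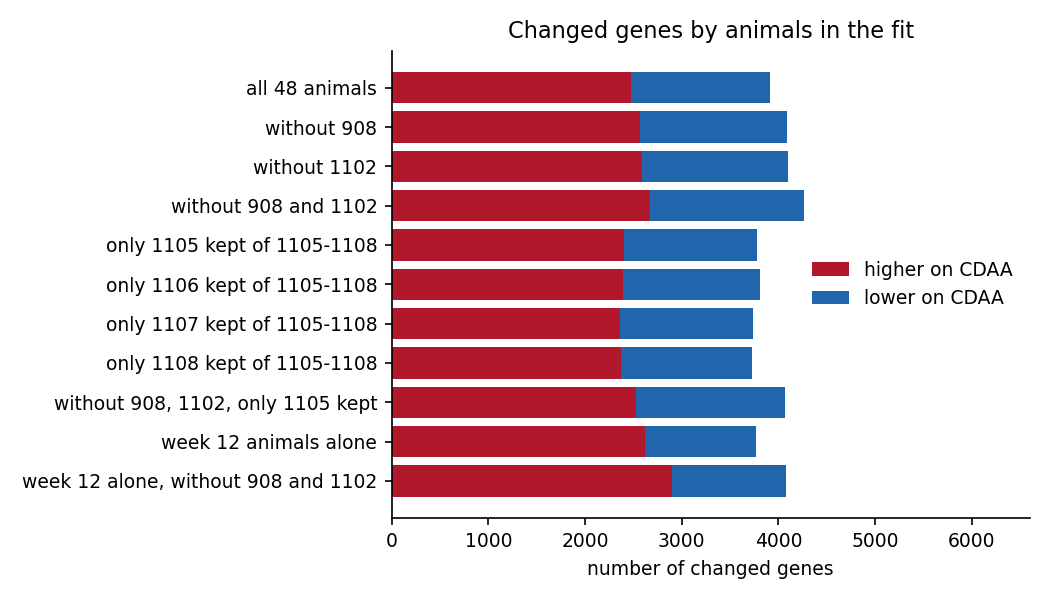
Number of changed genes (x axis, from 0) in the fit of all 48 animals and in fits with animals left out (y axis), with upregulated genes in red and downregulated genes in blue. The count lies between 3729 and 4266 in all of these fits, with 3917 for all animals.

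Most genes changed at week 12 had moved the same way before. The genes were chosen by their effect at week 12, so that smaller effects at other weeks are a description and no test. At week 8, 99.2% of the upregulated and 99.1% of the downregulated genes had a fold change of the same sign, and at week 4 97.8% and 97.2%. Over all genes tested the sign was shared with week 12 by 83.9% at week 8 and 81.7% at week 4. The upregulated genes had a median log2 fold change of 1.55 at week 8 and 1.45 at week 4, against 1.89 at week 12. For the downregulated genes it was -1.16 at week 8 and -0.80 at week 4, against -1.36 at week 12. Of the upregulated genes, 80.8% were already counted as changed at week 8 and 70.2% at week 4, and of the downregulated genes 59.1% and 30.7% (over all genes tested, 30.2% were changed at week 8 and 19.9% at week 4). No gene was changed in the opposite direction at week 8, and 2 were at week 4.

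**Figure D5:**
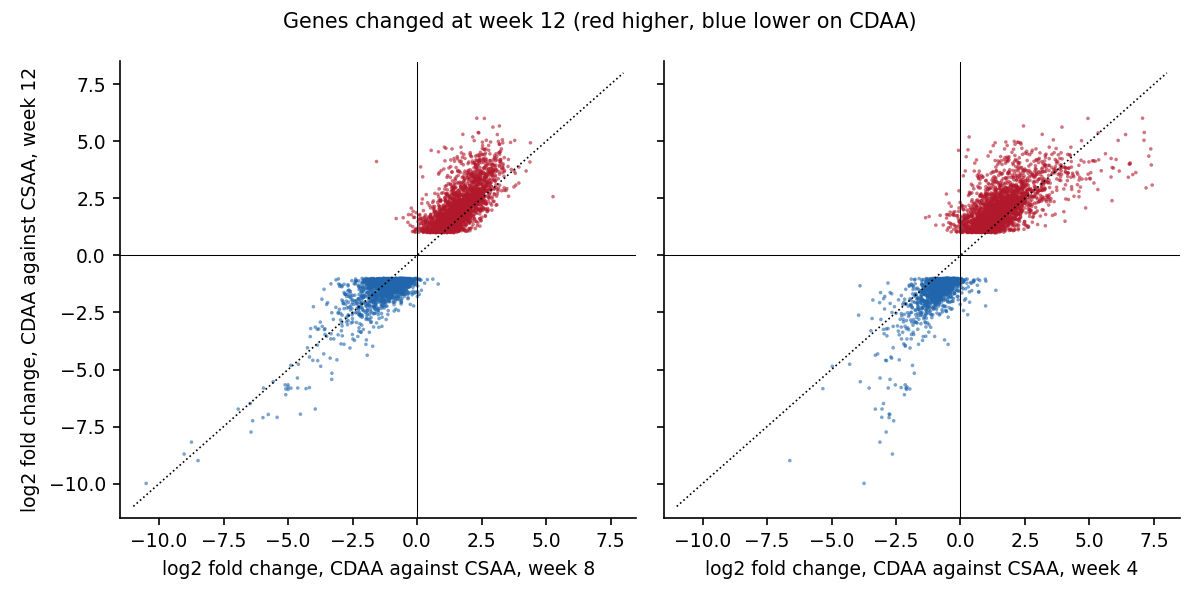
Log2 fold change of CDAA against CSAA at week 12 (y axis) against that at week 8 (left) and week 4 (right), 1 point per gene changed at week 12, red for upregulated and blue for downregulated genes, with a dotted line of equal change. Nearly all points keep their sign, and the downregulated genes lie closer to 0 at week 4, with a median of -0.80.

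The difference between the weeks was tested itself, as the diet by week interaction in the same fit. The diet effect at week 12 differed from that at week 8 in 511 genes (4.01%) and from that at week 4 in 643 genes (5.04%), at the same limits for the adjusted p value and the log2 difference. Against week 8, 245 of the 511 genes were changed at week 12. Of these, 132 upregulated and 81 downregulated genes had a larger effect at week 12, and 32 downregulated genes a smaller one. Against week 4, 497 of the 643 were changed at week 12, 224 upregulated and 259 downregulated genes with a larger effect and 11 and 3 with a smaller one. Against week 8, 186 of the 511 genes were changed at week 8 and no longer at week 12, and against week 4 this held for 54 of 643.

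These counts rested in part on single animals. Without animals 908 and 1102 they rose to 801 against week 8 and 973 against week 4, and without animal 908 alone to 721 and 839. Animal 303 of CDAA at week 4 and animal 504 of CSAA at week 8 also stood apart from their groups. Without them the counts were 516 and 544, and the median log2 fold change of the downregulated genes was -1.24 at week 8 and -0.98 at week 4. Of the downregulated genes, 47.7% were then already changed at week 4, in place of 30.7%. These medians and shares are over different sets of genes. The fit without animals 303 and 504 counted 1198 genes as downregulated at week 12, in place of 1441. Its median log2 fold change of all genes at week 12 was -0.001 in place of -0.09, so the scale moved as well. Without all 4 animals, 771 and 887 genes differed. The downregulated genes with a larger effect at week 12 than at week 4 numbered 259 of 1441 with all animals. They numbered 109 of 1198 without animals 303 and 504 and 174 of 1352 without all 4. How much of this lay in week 4 and how much in the scale was not tested.

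Of the genes given by identifier, ENSRNOG00000008050 differed between week 12 and week 4. Its log2 fold change was -3.74 ± 0.718 (SE) at week 4 and -10.5 ± 1.08 (SE) at week 8, and the difference of week 12 minus week 4 was -6.25 ± 1.14 (SE, edgeR adjusted p = 3.31e-05). At week 4 the CDAA animals had a median of 1.24 CPM and a maximum of 175, that of animal 303, while the controls of that week ranged from 233 to 408. Without animals 303 and 504 the difference was -3.24 ± 0.750 (SE, edgeR adjusted p = 0.000923), smaller and still past the limits. For ENSRNOG00000030868, ENSRNOG00000017762 and ENSRNOG00000004695 the differences of week 12 minus week 8 were -0.50 (95% interval -6.47 to 5.47), 1.76 (-0.34 to 3.87) and 1.25 (-0.54 to 3.05), and none passed the test with all animals (edgeR adjusted p = 0.921, 0.202 and 0.291). The intervals were derived from the test statistic and are rough where a difference is small, as for ENSRNOG00000030868. Without animals 908 and 1102 the difference became 4.51 for ENSRNOG00000017762 (adjusted p = 0.00333) and 3.99 for ENSRNOG00000004695 (adjusted p = 0.00202), and both passed. Without animals 303 and 504 as well, the differences were 2.43 (adjusted p = 0.154) and 2.74 (adjusted p = 0.0110), and neither passed.

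The change also varied with gene length, which was estimated from the ratio of counts to RPKM for 12714 of the genes tested. These lengths hold up to the scale of the authors' read totals. Among the shortest of 5 classes with equal numbers of genes, up to 1348 bases, 14.9% were upregulated and 17.2% downregulated. Among the longest, above 3799 bases, 24.9% were upregulated and 5.82% downregulated. With the trend on length removed in each animal, the shares became 17.9% and 8.81% in the shortest and 20.9% and 10.4% in the longest class, and 3446 of the 3917 genes remained changed in the same direction. The part of length in the changes was not tested further.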

How the data were processed

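Liver RNA of 48 rats was analysed, with diet, week and animal taken from the labels and 0 columns left over. The authors sequenced stranded mRNA libraries as single-end reads, aligned them to Rnor_6.0 with STAR, counted reads per Ensembl gene with featureCounts and deposited raw counts. The RPKM values were also deposited by the authors, who scaled the counts to gene length and read totals. Counts were tested with edgeR 4.0.16 (R 4.3.3, TMM) in 1 fit of all 6 groups over genes with 1 CPM or more in at least 5 animals of any group. Alternatives used limma 3.58.1 (voom, or log2 RPKM plus 0.1 or 1), DESeq2 1.42.0, other scaling, no filter and fewer animals. Position used log2 CPM with a prior count of 2. Intervals are at 95%. The tests were tried on simulated data with few changed genes, in equal numbers up and down. That setting is unlike the broad change found here, so it cannot show how the tests perform on these data. Of 32662 identifiers, 0 matched a name in the reference table, so gene lists, markers and promoter motifs were not analysed here, and identifiers were limited to the 2 largest rises and 2 largest falls among changed genes with separate values and a group mean of at least 10 CPM. The animals, genes and comparisons were chosen with earlier results of these data known. The labels name no batch, and none was modelled. The depth was 15267445 to 21193513 reads on genes per animal of week 12, and counting error was not separated from the spread between animals.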

Additional observations from a re-analysis of the deposited data

Results flagged for a closer look

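In 22 checks of 8 animals each, on library measures and on the 4 genes given by identifier, 5 values lay further from their group than Dixon's 95% limit. For normally spread values chosen in advance, chance gives about 1 in 20, or 1.1 here. The animals and genes were chosen with earlier results of these data known, and values near absence are not normally spread. The number 1.1 is therefore no yardstick here, and the 5 values are a description. Animal 908 of CSAA had 1.94% of its reads on the upregulated genes (other controls 0.807% to 0.969%), a median position of 0.40 between the diets (others -0.09 to 0.06), 3.93 CPM of ENSRNOG00000017762 (others up to 0.180) and 3.73 CPM of ENSRNOG00000004695 (others up to 0.430). These 4 values come from 1 library and overlap in the genes they use. Animal 1102 of CDAA had the lowest TMM factor of its group, 1.27 against 1.35 to 1.43.

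The diet effect differed by the interaction test between week 12 and week 8 in 511 genes and between week 12 and week 4 in 643 genes. For ENSRNOG00000008050 the log2 difference of week 12 minus week 4 was -6.25, with animal 303 of CDAA at week 4 at 175 CPM, and -3.24 without animals 303 and 504.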

How the results depend on the processing

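The number of changed genes at week 12 stayed within 1.5 times of 3917 in 34 of 35 alternatives, with 2332 in the test against a log2 fold change of 1 as the exception. A similar number did not mean the same genes. Of the 3917 genes, 2764 (70.6%) were also changed with log2(RPKM + 0.1) and 1928 (49.2%) with log2(RPKM + 1). With 1 of the 16 animals left out at a time, there were 3823 to 4099 changed genes, 2442 to 2588 higher and 1374 to 1520 lower. Against 2476 higher and 1441 lower, library size alone gave 4864 and 311, log2(RPKM + 0.1) gave 4800 and 293, log2(RPKM + 1) gave 226 lower, and the test against the limit gave 1621 and 711. The interaction counts moved most. Against week 8 (511), they were 6 in the test against a log2 difference of 1, 767 with log2(RPKM + 0.1), 801 without animals 908 and 1102, 337 and 313 with only animal 1107 or 1108 kept, 771 without animals 303, 504, 908 and 1102, and 438 to 721 with each animal of week 12 left out. Against week 4 (643), they were 1014 by library size alone, 12 in the test against a log2 difference of 1, 1356 with log2(RPKM + 0.1), 973 without animals 908 and 1102, and 564 to 839 with each animal left out. The cause was not tested beyond the choice of scale, limit or animals itself. The 4 genes given by identifier kept direction and call in all 35 alternatives, with log2 fold changes from 3.07 to 7.95 for ENSRNOG00000017762, 2.59 to 7.93 for ENSRNOG00000004695, -10.6 to -7.11 for ENSRNOG00000008050 and -9.44 to -4.93 for ENSRNOG00000030868. They were chosen as the largest changes with separate values, so that kept calls were likely. For ENSRNOG00000030868 the adjusted p with limma-voom was 0.00838, close to the limit of 0.01. The fits without animals 303 and 504, and that of week 12 alone without 908 and 1102, were added after seeing the data. Alternatives for gene lists were not run, since no names were matched. No paired analysis was possible because the replicate numbers only follow the order of the samples. Depth limits genes near absence, such as ENSRNOG00000030868, with at most 3 reads in any CDAA animal of week 12.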
